A study of Rattus norvegicus with 6 samples.

Results

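The genes that store, release and make fat were followed in the mesenterial adipose tissue of newborn rats, the fat in the folds that hang the gut. The set held 40 genes of lipid uptake, lipolysis, the lipid droplet, triglyceride synthesis and fatty acid synthesis, out of 14217 genes named on the array. Members were taken by symbol, from every probe set (a group of short probes against 1 transcript) that the platform annotation gives to exactly 1 of these genes, and 67 of 31042 probe sets met this rule. A further probe set, annotated to both Cd36 and Cd36l1, was left out. All 6 arrays came from wildtype Sprague-Dawley pups. Dams of the deficient group ate a diet holding 0 IU/kg vitamin D (3 arrays), and dams of the adequate group one holding 1000 IU/kg (3 arrays). The labels state no litter, sex or dam for any array, so p-values may reflect only the spread between these samples. The diet was the dams', and a vitamin D status measured in pups is not given in the sources used here.

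Fat cells take up fatty acids that lipoprotein lipase frees from circulating lipoproteins, or build them from glucose through citrate and acetyl-CoA. The acids are joined to glycerol as triglyceride and kept in a droplet coated with perilipins. Lipases on that droplet release the acids when the body needs fuel. In rats much of the white fat is laid down around and after birth, so a newborn depot holds many cells that are still filling.

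The values were MAS5 signals, linear brightness units scaled to a common level on every array. Median signals lay between 155.1 and 166.6 units. A pair of deficient arrays, numbers 1 and 2, differed in quality measures from the rest: bacterial hybridisation controls read 7.43 and 10.8 times the adequate mean there, and 0.946 times on deficient array 3. Their beta-actin 3' over 5' ratios, a measure of RNA integrity and labelling, were 7.56 and 6.8, with 2.35 on deficient array 3 and 2.39 to 4.81 on the adequate arrays. Their share in the results below was not tested. For named members, but not further pathway genes, the log2 change with deficient array 3 alone is given where it moves by over 1.5 times. Such a value sets 1 array against 3, has no spread of its own group, and is printed without a p. Bulk tissue was measured, so fewer cells of a type and less RNA per cell cannot be told apart.

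Newborn mesenterial fat carried signal for 31 of the 40 genes. These had at least 1 probe set whose mean log2 signal reached 6.46 (88.2 units), the 40th percentile of all probe sets, and only such probe sets were tested. The other 9 were Aqp7, Plin1, Plin5, Cidec, Gpam, Gpd1, Acacb, Mlxipl and Thrsp, and their highest single reading was 129 units, for Aqp7 on deficient array 1. Plin1, the perilipin of large adipocyte droplets, read 4.99, 36.8 and 28.9 units on deficient arrays 1, 2 and 3, against 3.01, 5.32 and 8.40 on adequate arrays 1, 2 and 3. Those are readings of its dimmer probe set. The brighter one read 40.8, 4.31 and 13.8 units on the deficient arrays, against 11.8, 5.30 and 30.8 on the adequate arrays. Cidec, which fuses droplets into a single large one, lay between 2.05 and 5.44 units in the deficient group and between 2.40 and 8.20 in the adequate group. Both are dim on every array. Thrsp, a thyroid hormone responsive gene of lipogenic tissue, read 60.5, 49.4 and 39.2 units on the deficient arrays, against 41.1, 29.9 and 46.7 on the adequate arrays, in the brightest of its 3 probe sets. These ranges overlap, and no change was read from any of the 9. Among general adipocyte markers the pattern was similar: Adipoq, Lep and Pparg were under the cutoff, and 6 of the 9 on the array (Cfd, Cebpa, Adipor2, Slc2a4, Adrb3 and Pck1) were above it. Adipoq, the adiponectin gene, read 11.1, 47.8 and 21.1 units on the deficient arrays and 18.0, 26.9 and 22.5 on the adequate arrays. A low reading can come from a weak probe set as well as from little RNA, and signals of different probe sets are not read as levels of one gene against another.

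**Figure D1:**
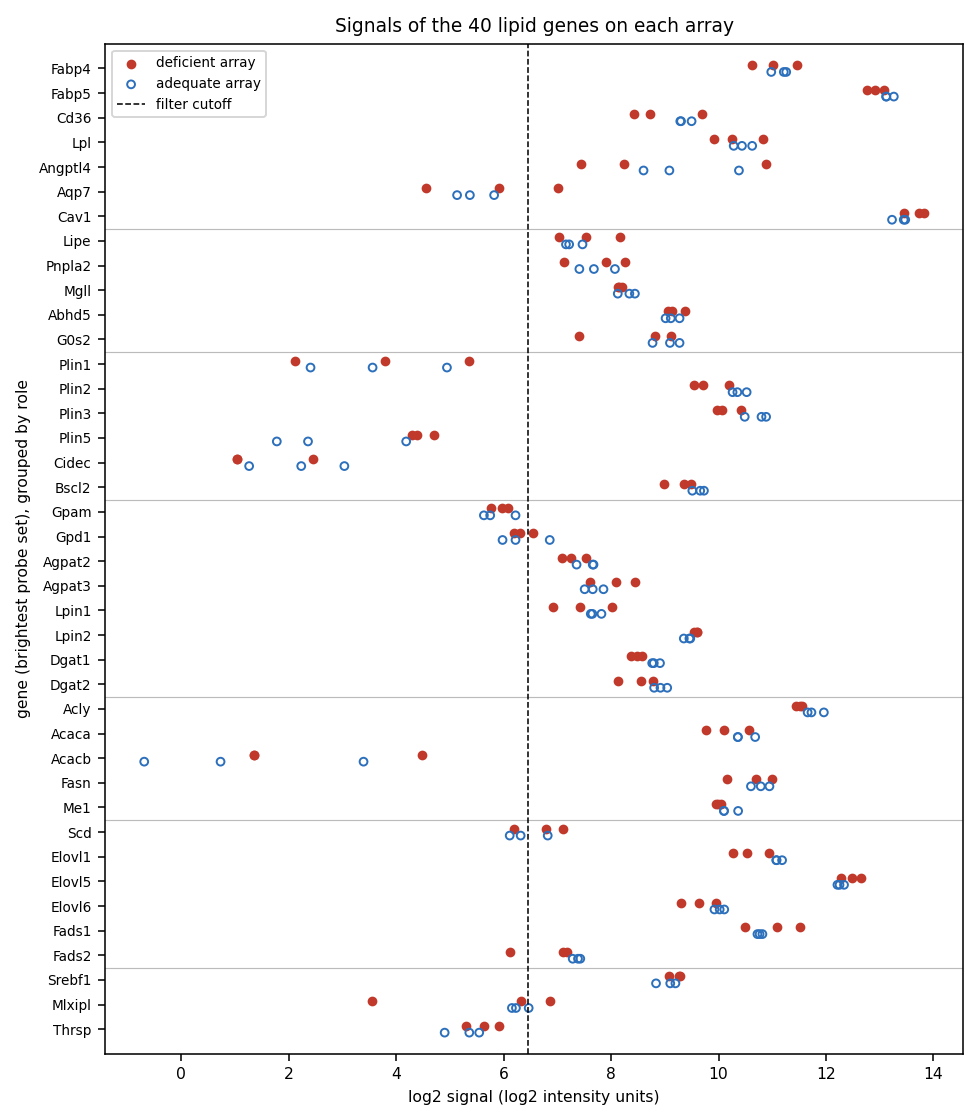
Log2 signal (x axis, log2 intensity units) of the brightest probe set of each of the 40 lipid genes (rows, with lines between role groups) on the 3 deficient arrays (filled) and 3 adequate arrays (open). The dashed line is the cutoff of 6.46, and 9 genes have a mean signal to its left, among them Plin1, Cidec and Thrsp.

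No lipid gene differed between the diets after adjustment over all probe sets. By limma, 0 of the 45 tested probe sets of the members had an adjusted p under 0.05, with a smallest adjusted p of 0.344, and the same held for 0% of all 18625 tested probe sets. At an unadjusted p under 0.05, 4 of the 45 were lower in the deficient group (8.89%), where 8.18% of all probe sets were, and 1 was higher (2.22%), where 6.03% of all were. These shares are near or under the background. After quantile normalization the count in both directions was 8 (17.8%, 7 of them lower), against 13.5% of all probe sets. The lower 4 belonged to Plin2, Plin3, Elovl1 and Fasn and the higher 1 to Mgll; those of Fasn and Mgll are not the brightest of their genes and were singled out after their values were seen. This count of 5 was 3 without deficient array 2 or without adequate array 1, where 4.86% and 5.77% of all probe sets had such a p, and 22 without deficient array 3, where 35.3% did. Without deficient array 3 there were also 8 member probe sets past the adjusted threshold (17.8%, against 19.4% of all probe sets), from Acaca, Angptl4, Cav1, Cd36, Elovl1, Fads1 and Plin2.

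The signals of the deficient arrays did lie under those of the adequate arrays for a larger share of these genes than of all genes. Taking the brightest tested probe set for each gene, all 3 deficient arrays were below all 3 adequate arrays for 10 of the 31 genes (32.3%), against 13.3% of 10591 genes. These 10 were Fabp5, Plin2, Plin3, Bscl2, Dgat1, Dgat2, Acly, Me1, Elovl1 and Fads2. The reverse held for 1 gene, Lpin2 (3.23%), against 4.97% of all genes. It also held for 1 gene after quantile normalization, again Lpin2 (5.65% of all genes), and after median centring, Elovl5 (4.74% of all genes). The number lower without overlap was 7 after quantile normalization (12.0% of all genes) and 7 after median centring (12.7% of all genes). Plin3, Me1 and Fabp5 left the list under the first, and Fabp5, Plin2 and Bscl2 under the second. By unadjusted p, 3 of the 31 genes were lower (9.68%), against 10.1% of all genes, and 0 were higher, against 4.75%. Over all 45 tested probe sets, 13 were lower without overlap (28.9%), against 10.8%, and 2 were higher (4.44%), against 6.55%. The median log2 change, deficient minus adequate, was -0.24 over the 31 genes, of which 21 were lower, and -0.09 over all genes, of which 60.8% were lower. With deficient array 3 alone against the adequate arrays the medians were -0.11 and -0.03.

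**Figure D2:**
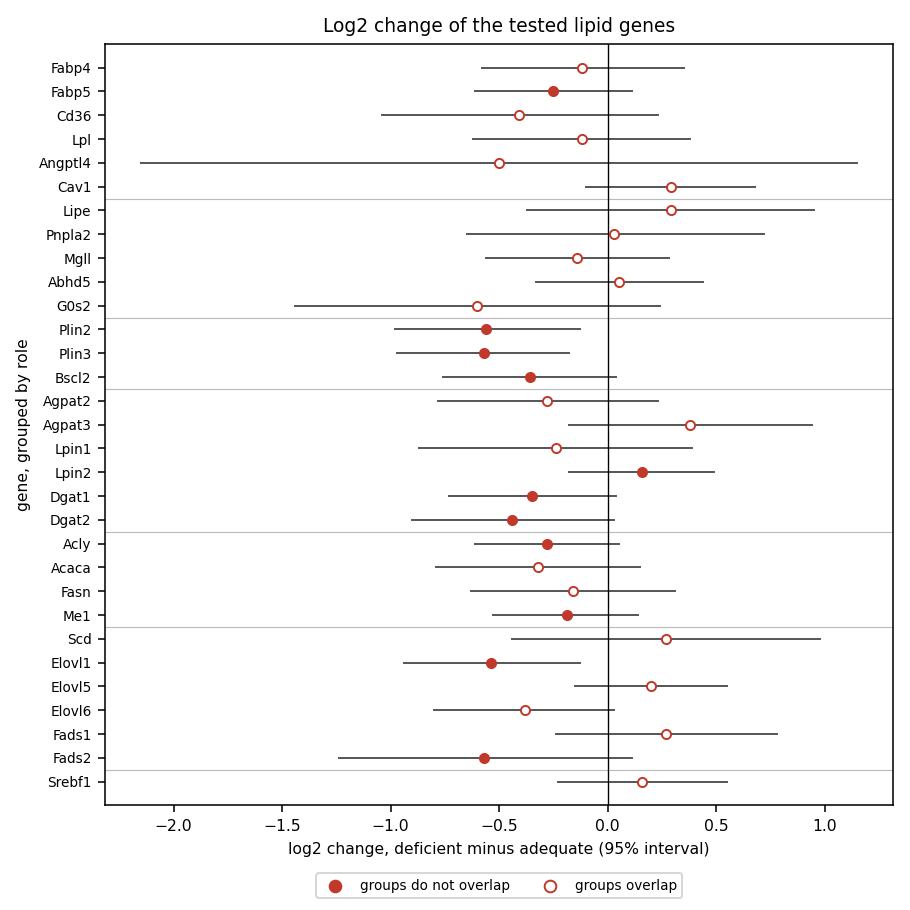
Log2 change, deficient minus adequate, with its 95% interval from limma (x axis) for the brightest tested probe set of each of the 31 tested lipid genes (rows, with lines between role groups). Filled points mark the 11 genes whose groups do not overlap, and the intervals of Plin2, Plin3 and Elovl1 lie wholly below 0.

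Lipid droplet genes were lower in the deficient group for all 3 genes tested, of 6 in the role group, at a median log2 change of -0.56. Over all genes 60.8% were lower and the median was -0.09. As deposited, all 3 were lower without overlap, against 13.3% of all genes. That absence of overlap depended on scaling: Plin3 overlapped after quantile normalization, and Plin2 and Bscl2 after median centring, while the median was -0.50 and -0.54. Plin2, the perilipin that coats droplets in most cell types and early fat cells, read 840, 749 and 1178 units on deficient arrays 1, 2 and 3, against 1471, 1305 and 1227 on adequate arrays 1, 2 and 3. The highest deficient array came close to the lowest adequate array. Its log2 change was -0.56 ± 0.19 (SE; limma adjusted p = 0.344, unadjusted p = 0.0155), a fold of 0.680. A second, dimmer probe set of Plin2 had a log2 change of -0.37 ± 0.23 and its groups overlapped. The brighter one was at -0.18 with deficient array 3 alone, and at -0.75 without that array (limma adjusted p = 0.00839), where only arrays 1 and 2 with their high control readings remain. Plin3, a perilipin found both on droplets and in the cytosol, read 1365, 1002 and 1075 units on the deficient arrays, against 1782, 1435 and 1891 on the adequate arrays. Deficient array 1 lay just under adequate array 2, and the other pair of deficient arrays well below. Its log2 change was -0.57 ± 0.18 (SE; limma adjusted p = 0.344), a fold of 0.672, and leaving out each array in turn gave values between -0.70 and -0.48. Bscl2, which encodes seipin and shapes budding droplets at the endoplasmic reticulum, read 654, 505 and 713 units in the deficient group, against 730, 808 and 848 in the adequate group, a log2 change of -0.36 ± 0.18 (SE; limma adjusted p = 0.369). Deficient array 3 was close to adequate array 1, and the log2 change of Bscl2 was -0.22 without deficient array 2 and -0.15 with deficient array 3 alone. The untested Plin5, a perilipin of oxidative tissue, lay between 19.6 and 25.9 units in the deficient group and between 3.43 and 18.2 in the adequate group, so its groups did not overlap but all 6 readings lay far under the cutoff.

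Promoter windows are shown for Plin2, Plin3 and Elovl1, the 3 genes whose brightest probe set had an unadjusted p under 0.05. They come from RefSeq on build GRCr8 and give the 250 bases before an annotated start, 5' to 3' on the gene's strand. RefSeq lists 2 starts for Plin2, at the windows chr5:106229019-106229268 and chr5:106228538-106228787 (minus strand). Plin3 is at chr9:1210213-1210462 (minus strand) and Elovl1 at chr5:137247905-137248154 (plus strand). Capitals mark matches, on either strand, to the E-box CACGTG or to the NF-Y box CCAAT, which reads as its reverse complement in Plin3.
Plin2, first start: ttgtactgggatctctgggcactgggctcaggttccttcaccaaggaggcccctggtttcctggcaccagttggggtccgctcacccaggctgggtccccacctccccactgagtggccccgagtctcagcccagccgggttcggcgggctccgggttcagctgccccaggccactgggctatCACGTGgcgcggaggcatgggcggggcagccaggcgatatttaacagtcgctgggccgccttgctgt
Plin2, second start: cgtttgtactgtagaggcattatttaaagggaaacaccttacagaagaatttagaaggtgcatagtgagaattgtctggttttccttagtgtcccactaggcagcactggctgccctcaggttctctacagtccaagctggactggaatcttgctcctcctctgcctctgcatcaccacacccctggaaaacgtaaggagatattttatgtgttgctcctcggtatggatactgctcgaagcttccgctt
Plin3: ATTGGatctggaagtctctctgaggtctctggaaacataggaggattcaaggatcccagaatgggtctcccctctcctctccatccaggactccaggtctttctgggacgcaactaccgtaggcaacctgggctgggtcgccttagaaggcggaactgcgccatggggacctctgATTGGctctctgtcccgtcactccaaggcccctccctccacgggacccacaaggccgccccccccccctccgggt
Elovl1: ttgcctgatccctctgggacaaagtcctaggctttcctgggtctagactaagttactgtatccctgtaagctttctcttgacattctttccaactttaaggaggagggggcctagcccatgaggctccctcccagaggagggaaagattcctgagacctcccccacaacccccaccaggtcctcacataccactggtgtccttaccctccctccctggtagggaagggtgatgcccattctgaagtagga

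Windows of 300 bases, with the 50 after the start added, were searched for 29 members in 33 windows. No window stood under the symbols of Fabp4, Fabp5, Lpl, Aqp7, Lipe, Gpd1, Dgat1, Dgat2, Acaca, Fasn and Elovl6. The counts that follow do not cover these genes. The E-box, read by upstream factors such as Usf2, was in 3 windows (9.09%), of Mgll, Plin2 and Elovl5, and in 6.42% of 33469 windows in the RefSeq table. The NF-Y box was in 17 windows (51.5%), against 37.5% of all, and the sterol regulatory element TCACNCCAC in 0, against 1.12% of all. The second Plin2 window held its CCAAT match only after the start, in bases not printed. No match in a printed window overlapped another. A match of letters is a description and shows no binding.

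Genes of triglyceride synthesis did not share a direction. Of 8 genes 6 were tested, 4 lower and 2 higher, where 60.8% of all genes were lower. Their median log2 change was -0.26, with none past the adjusted threshold and 0 at an unadjusted p under 0.05 by limma. Both enzymes that add the last fatty acid to diacylglycerol were lower without overlap, as were 13.3% of all genes, and both 95% intervals included 0. Dgat1 read 331, 356 and 381 units on deficient arrays 1, 2 and 3, against 481, 444 and 435 on the adequate arrays, a log2 change of -0.35 ± 0.17 (SE; limma adjusted p = 0.368). Its groups were tight, with SDs of 0.10 and 0.08 on the log2 scale in the deficient and adequate groups (n = 3 each). Dgat2 read 279, 376 and 437 units in the deficient group, against 484, 446 and 528 in the adequate group, and its 95% interval for the log2 change ran from -0.90 to 0.03. Deficient array 3 nearly reached adequate array 2, and the log2 change of -0.44 was -0.26 without deficient array 1 and -0.15 with deficient array 3 alone. A second Dgat2 probe set was also lower on every deficient array, at -0.33 ± 0.24. Lpin2, a phosphatidic acid phosphatase that yields diacylglycerol, went the other way: 750, 777 and 779 units on the deficient arrays, against 654, 711 and 703 on the adequate arrays. The groups were close together and overlapped after median centring, and the log2 change was 0.16 ± 0.15 (SE; limma adjusted p = 0.609). Its relative Lpin1, which also acts as a coregulator, read 121, 172 and 259 units on the deficient arrays, against 197 to 226 on the adequate arrays. Agpat2, the acyltransferase that makes phosphatidic acid in fat cells, lay between 136 and 184 units in the deficient group and between 164 and 204 in the adequate group. Gpam and Gpd1, which start the pathway, were among the dim genes, with highest readings of 74.6 and 116 units.

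In fatty acid synthesis the 4 tested genes of 5 were all lower, where 60.8% of all genes were, at a median log2 change of -0.24. All 4 stayed lower after quantile normalization and median centring, but Fasn was at 0.07 without deficient array 3. By limma, 0 of the 4 had an unadjusted p under 0.05 in the brightest probe set. Acly, the cytosolic enzyme that turns citrate into acetyl-CoA, read 2763, 2940 and 2988 units on deficient arrays 1, 2 and 3, against 3983, 3231 and 3394 on the adequate arrays. Its deficient arrays were close together and all below the adequate ones, and the log2 change was -0.28 ± 0.15 (SE; limma adjusted p = 0.383), a fold of 0.822. Me1, which supplies NADPH, read 1054, 1013 and 997 units in the deficient group, against 1099, 1318 and 1097 in the adequate group, a log2 change of -0.19 ± 0.15. The gap between its groups was small, and the change was -0.10 without adequate array 2. Acaca, the acetyl-CoA carboxylase of the cytosol, had a log2 change of -0.32 ± 0.21, with deficient array 3 inside the adequate range. Fasn, the fatty acid synthase that ends the pathway, read 2046, 1655 and 1146 units on the deficient arrays, against 1974, 1555 and 1765 on the adequate arrays. Deficient array 1 was the highest of all 6 and deficient array 3 the lowest. Its 95% interval for the log2 change, -0.63 to 0.31, allows a fall or a rise, and deficient array 3 alone was at -0.62. A dimmer Fasn probe set read 350, 174 and 276 units in the deficient group, against 436, 426 and 401 in the adequate group, a log2 change of -0.72 ± 0.26 (SE; limma adjusted p = 0.344). Its groups did not overlap, so the pair of Fasn probe sets gave different pictures of deficient arrays 1 and 2. Acacb, the mitochondrial carboxylase, was dim, at 22.4 units or less.

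Genes that lengthen and desaturate fatty acids split evenly, with 3 of 6 lower and a median of -0.09 for the log2 change. Elovl1, which elongates saturated very long chains, read 1474, 1235 and 1955 units on deficient arrays 1, 2 and 3, against 2155, 2165 and 2324 on the adequate arrays. The adequate arrays were tight and the deficient arrays all lower, at a log2 change of -0.54 ± 0.18 (SE; limma adjusted p = 0.344). With deficient array 3 alone it was at -0.18, and without that array at -0.71 (limma adjusted p = 0.00676). Fads2, the desaturase at the entry to long polyunsaturated fatty acids, read 137, 69.7 and 144 units in the deficient group, against 172, 167 and 156 in the adequate group. Deficient array 2 alone was far below, and the log2 change of -0.57 ± 0.30 was -0.23 without it and -0.19 with deficient array 3 alone. Its neighbour in the pathway, Fads1, read 2923, 2189 and 1440 units on the deficient arrays, against 1691 to 1803 on the adequate arrays, so deficient arrays 1 and 2 were above and array 3 below all adequate arrays. Elovl5, which elongates polyunsaturated acids, read 5691, 6418 and 4961 units in the deficient group, against 4875, 4746 and 5167 in the adequate group, a log2 change of 0.20 ± 0.16. As deposited, the groups overlapped through deficient array 3, which alone was at 0.01, and quantile normalization gave 0.03. After median centring they did not overlap. Elovl6, which takes palmitate to stearate, was lower in both probe sets, at -0.38 ± 0.19 and -0.32 ± 0.19. Scd, the stearoyl-CoA desaturase listed here, sat at the cutoff, with 110, 137 and 72.7 units on the deficient arrays, against 113, 69.2 and 79.7 on the adequate arrays. No fold is given, since its adequate mean lay under the cutoff. Its relative Scd2, which is not a member, was well above the cutoff, with 4650 to 7559 units in the deficient group and 5903 to 6738 in the adequate group.

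Among genes of fatty acid uptake, 5 of 6 tested genes were lower, where 60.8% of all genes were, and 6 of 6 after quantile normalization. The group was marked by disagreement among the deficient arrays. Fabp5, a cytosolic fatty acid carrier found in fat, skin and macrophages, read 7692, 6914 and 8700 units on deficient arrays 1, 2 and 3, against 8930, 8889 and 9822 on the adequate arrays, a log2 change of -0.25 ± 0.16. Its groups did not overlap, by a narrow gap at deficient array 3, which alone was at -0.08. After quantile normalization the log2 change of Fabp5 was -0.48 (limma adjusted p = 0.361), and its groups then overlapped. Fabp4, the carrier of adipocytes, overlapped, with 1581 to 2821 units in the deficient group and 2021 to 2451 in the adequate group. Cd36, a fatty acid translocase of fat cells, endothelium and macrophages, read 346, 425 and 832 units on the deficient arrays, against 631, 625 and 723 on the adequate arrays. Deficient arrays 1 and 2 were below and array 3 above every adequate array, and the log2 change was -0.41 ± 0.29. Without deficient array 3 its log2 change was -0.78 (limma adjusted p = 0.0146), and with that array alone it was 0.34. Lpl, lipoprotein lipase, read 960, 1216 and 1826 units in the deficient group, against 1580, 1245 and 1385 in the adequate group. Array 3 was again the highest of all 6. Angptl4, a secreted inhibitor of Lpl that rises in fasting, varied 10.9-fold across the 6 arrays, more than any other tested member. It read 302, 174 and 1890 units on the deficient arrays, against 543, 1332 and 389 on the adequate arrays. One array of each group was high, and the 95% interval of the log2 change ran from -2.15 to 1.15. Cav1, the caveolin of the plasma membrane in fat, endothelium and smooth muscle, read 14536, 13678 and 11260 units on the deficient arrays, against 9598, 11380 and 11162 on the adequate arrays. Its log2 change of 0.29 ± 0.18 was -0.06 after quantile normalization and 0.08 with deficient array 3 alone, and its 3 tested probe sets ran from -0.34 to 0.29.

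Markers of other cell types, several of which use the uptake genes above, were read on the same arrays. Macrophage markers were lower for 9 of 11 tested genes, with summed signals of 11130 to 15419 in the deficient group and 14217 to 17183 in the adequate group, and only Itgam was under the cutoff. Endothelial markers were lower for 5 of 9, with sums of 10202 to 11254 in the deficient group and 11847 to 12456 in the adequate group, and all 9 were above the cutoff. Smooth muscle markers were higher for 5 of 6, with sums of 106141 and 110939 on deficient arrays 1 and 2 and 70811 on array 3, against 56290 to 68624 on the adequate arrays. Adipocyte markers showed no shared direction, with 3 of 6 tested genes lower and 3 higher (Cebpa, at 0.00, counted as higher). Their median log2 change was -0.14. Their sums were 1788, 1667 and 2747 on deficient arrays 1, 2 and 3, against 2420 to 2530 on the adequate arrays. Markers of 5 further cell types were mostly lower, but the ranges of their sums overlapped between the diets. Over all genes 60.8% were lower, and the counts in this paragraph stand beside that share. Hepatocyte markers were lower for 5 of 5, with sums of 1171 to 2743 units in the deficient group and 1266 to 5847 in the adequate group. Intestinal epithelium markers were lower for 4 of 4, with sums of 2235 to 2841 in the deficient group and 2630 to 5595 in the adequate group. Adequate array 3 held the top sum of both, and Vil1, Fabp1, Fabp2, Apoa4 and Krt20 of the gut and Apoa2, Apob, Fgb and Cyp2e1 of the liver had means under the cutoff. Adipose progenitor markers were lower for 5 of 6, with sums of 6521 to 11279 in the deficient group and 7701 to 9261 in the adequate group. Mesothelium markers were lower for 5 of 6, with sums of 6550 to 8849 in the deficient group and 8317 to 9279 in the adequate group, and they share Krt19 with the intestinal list. Skeletal muscle markers were lower for 4 of 4, with sums of 1238 to 1697 in the deficient group and 1580 to 1735 in the adequate group, and Actn3 was under the cutoff. The part of these cells in the values of Fabp5, Cd36, Cav1, Plin2 and the other lipid genes was not tested. Of 7 brown fat markers, 5 had means under the cutoff: Ucp1, Cidea, Dio2, Elovl3 and Cox8b. Ucp1 was dim on all 6 arrays, at 1.85 to 28.2 units in the deficient group and 9.78 to 23.9 in the adequate group. Ppargc1a and Cpt1b were above the cutoff, with log2 changes of 0.09 ± 0.24 and -0.32 ± 0.23.

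Lipolysis genes showed no shared direction, with 2 of 5 lower and a median of 0.03 for the log2 change. Pnpla2, the lipase that takes the first fatty acid off triglyceride, read 139, 239 and 305 units on deficient arrays 1, 2 and 3, against 170, 205 and 269 on the adequate arrays. The groups covered each other, and the 95% interval of the log2 change was -0.65 to 0.72, with deficient array 3 alone at 0.53. Lipe, hormone-sensitive lipase, read 288, 185 and 130 units in the deficient group, against 143, 177 and 149 in the adequate group, with deficient array 3 below and the other pair above every adequate array. Abhd5, the activator of Pnpla2, lay between 531 and 668 units in the deficient group and between 517 and 619 in the adequate group. G0s2, the inhibitor of Pnpla2, read 451, 554 and 169 units on the deficient arrays, against 619, 437 and 547 on the adequate arrays. Only deficient array 3 was low, the same array on which Angptl4 was highest. Mgll, which frees the last fatty acid, depended on the probe set. Its brightest one had a log2 change of -0.14 ± 0.19, while a dimmer one read 357, 168 and 301 units on the deficient arrays, against 140, 124 and 159 on the adequate arrays, at 0.90 ± 0.29 (SE; limma adjusted p = 0.344).

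**Figure D3:**
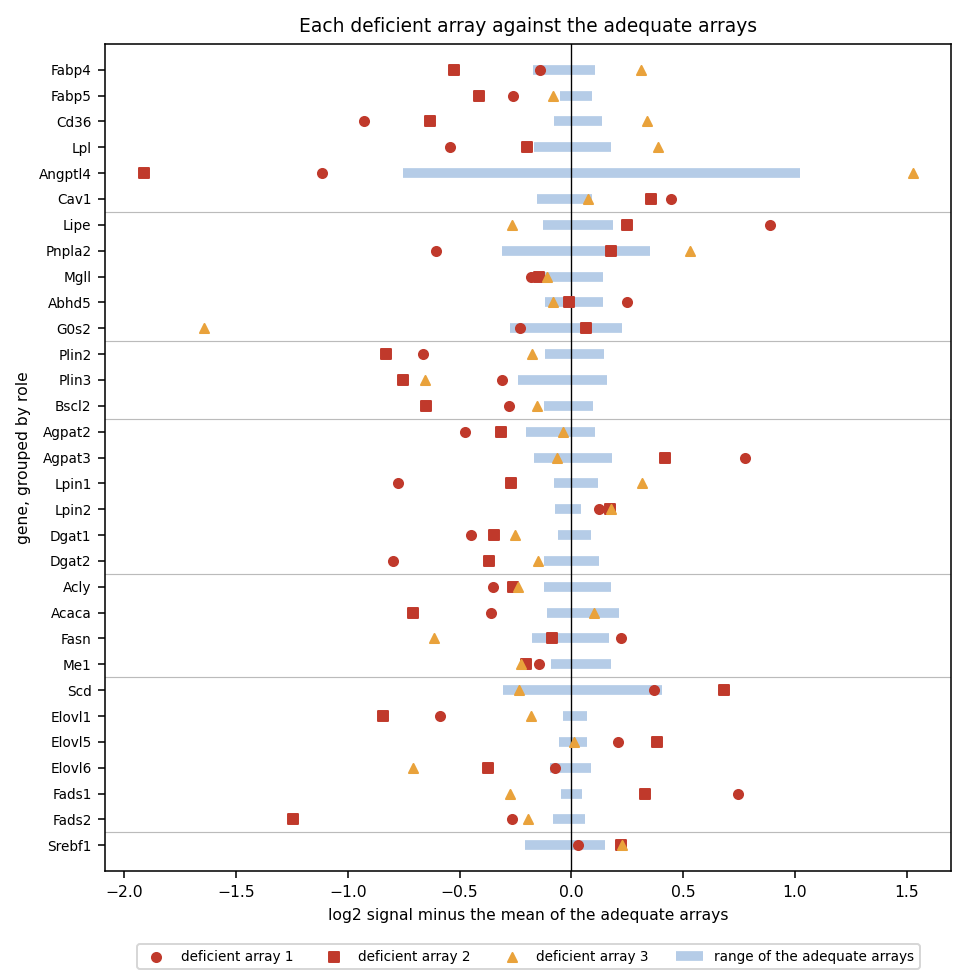
Log2 signal on each deficient array minus the mean of the 3 adequate arrays (x axis) for the 31 tested lipid genes (rows, with lines between role groups). Circles, squares and triangles are deficient arrays 1, 2 and 3 and blue bars span the adequate arrays; for Cd36, Lpl, Angptl4, Lpin1, Lipe and Fads1 array 3 lies on the opposite side of the bar from arrays 1 and 2.

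Array by array, deficient arrays 1 and 2 each had 18 of the 31 genes below all adequate arrays (58.1%, against 43.4% and 48.1% of all genes), and deficient array 3 had 15 (48.4%, against 32.1% of all genes). Each deficient array had 8 above all adequate arrays (25.8%), against 29.6%, 27.4% and 23.3% of all genes on arrays 1, 2 and 3. Deviations from the adequate mean had medians of -0.26, -0.26 and -0.11 for deficient arrays 1, 2 and 3 over these genes, where all genes had -0.09, -0.14 and -0.03. On the adequate arrays the median over the 31 genes lay between -0.03 and 0.01. For 6 of the 31 genes (19.4%), against 13.6% of all genes, deficient arrays 1 and 2 lay on one side of the adequate arrays and array 3 on the other. In 4 of them, Cd36, Lpl, Angptl4 and Lpin1, arrays 1 and 2 were the low ones, and in Lipe and Fads1 they were the high ones.

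Srebf1, the factor that switches on many fatty acid synthesis genes, was the only lipogenic regulator tested of 3. It read 539, 616 and 619 units on deficient arrays 1, 2 and 3, against 549, 457 and 587 on the adequate arrays, a log2 change of 0.16 ± 0.17 (SE; limma adjusted p = 0.654) that was 0.06 without adequate array 2. The groups overlapped, and a second, dim probe set had a higher value too. Mlxipl, the carbohydrate-responsive factor, was under the cutoff, with 116, 80.0 and 11.7 units in the deficient group and 71.2, 88.4 and 75.0 in the adequate group.

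Probe sets of 1 gene did not always match. Of 11 genes with several tested probe sets, 8 had them all in the same direction and 3, Cav1, Mgll and Agpat3, did not. Agpat3, an acyltransferase with 3 tested probe sets, ran from -0.58 to 0.38 on the log2 scale. Plin2, Dgat2 and Elovl6 were lower, and Lpin2 and Srebf1 higher, in both of theirs. Isoforms, probe position and cross-hybridisation were not tested as sources of the mismatch.

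**Figure D4:**
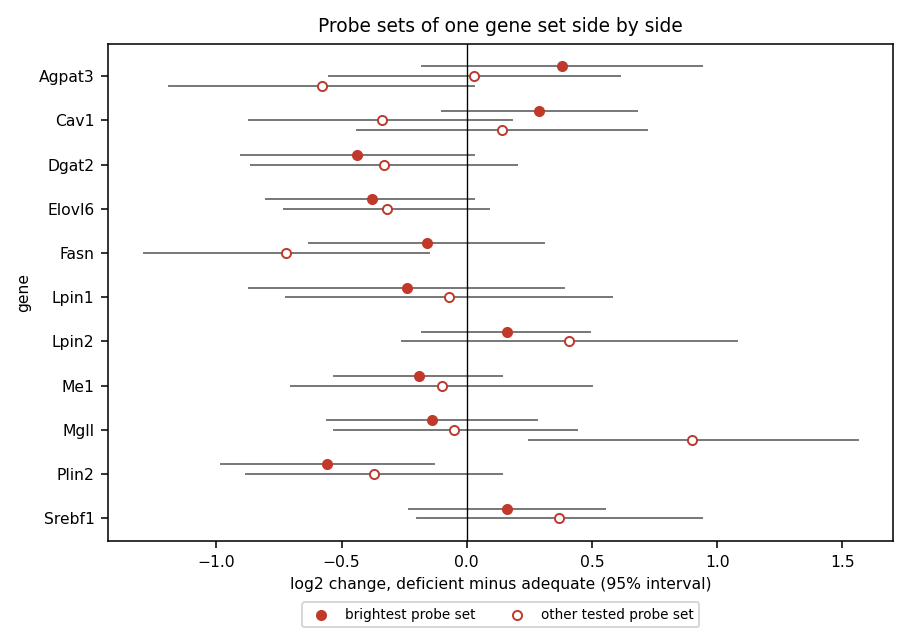
Log2 change, deficient minus adequate, with its 95% interval (x axis) for every tested probe set of the 11 lipid genes that have more than 1 (rows). The filled point is the brightest probe set; for Cav1, Mgll and Agpat3 the points fall on both sides of 0.

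The wider pathway had no gene past the adjusted threshold either. Of 109 further genes of the same pathways, 98 were on the array and 80 were tested, with 53 lower and 27 higher. Their median log2 change was -0.12. Over all genes 60.8% were lower and the median was -0.09, so the background itself leans lower. The counts per list below stand beside that share and differ among lists, from 4 of 8 to 11 of 13 genes lower. At an unadjusted p under 0.05, 15 were lower (18.8%) and 3 higher (3.75%) by limma, against 10.1% and 4.75% of all genes. Further genes of fatty acid synthesis, which supply acetyl units and NADPH or act in the mitochondrial pathway, were lower for 6 of 10. Acss1, the mitochondrial acetyl-CoA synthetase, read 432, 356 and 433 units in the deficient group, against 653, 573 and 703 in the adequate group, a log2 change of -0.66 ± 0.18. Idh1, the cytosolic isocitrate dehydrogenase, read 2474, 2289 and 1881 units, against 3226, 2728 and 3285 in the adequate group, at -0.48 ± 0.16. Neither overlapped between the diets, and both had a limma adjusted p of 0.344. Both were named for the smallest p in their list, so the lack of overlap adds no support. Over all genes 13.3% were lower without overlap and 4.97% higher. Slc25a1, the citrate carrier, and Me2, the mitochondrial malic enzyme, were at -0.69 ± 0.24 and -0.33 ± 0.18. Slc25a1 read 404 and 435 units on deficient arrays 1 and 2 and 746 on array 3, inside the adequate range of 687 to 900. In elongation, the dehydratases Hacd3 and Hacd2 were at -0.72 ± 0.15 and -0.58 ± 0.23. Their relative Hacd1 was at 0.30 ± 0.14 and the thioesterase Acot7 at -0.32 ± 0.16. Hacd2 read 355 units on deficient arrays 1 and 2 and 556 on array 3, inside the adequate range of 511 to 742.

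Further genes of triglyceride synthesis were lower for 11 of 13. Agpat4, an acyltransferase, had a log2 change of -0.61 ± 0.19 and Plpp2, a lipid phosphatase, one of -0.75 ± 0.26. The glucose transporter Slc2a4 was at -0.57 ± 0.34 and Plpp1 at -0.29 ± 0.20, both with deficient array 3 above every adequate array. There Slc2a4 read 1520 units, against 1086 to 1377 on the adequate arrays, and Plpp1 3638, against 3116 to 3362. Further regulators were lower for 11 of 14. Scap, which escorts sterol regulatory element-binding proteins to their activation, read 440, 394 and 736 units on the deficient arrays, against 1009, 770 and 811 on the adequate arrays, a log2 change of -0.77 ± 0.24. Srebf2, the partner factor for sterol genes, was at -0.57 ± 0.19 and Usf2, an E-box factor, at -0.58 ± 0.21, both without overlap. Ppargc1b, a coactivator of mitochondrial and lipogenic genes, was higher without overlap, at 0.80 ± 0.21 (SE; limma adjusted p = 0.344). These regulators too were named for their smallest p, so their lack of overlap adds no support. Uptake and activation genes were lower for 8 of 14. The caveolin Cav2 was at 0.69 ± 0.27, the lipase maturation factor Lmf1 at -0.75 ± 0.30, and the carriers Slc27a1 and Fabp3 at -0.60 ± 0.25 and -0.53 ± 0.24. For Lmf1, Slc27a1 and Fabp3 deficient array 3 lay inside the adequate range and arrays 1 and 2 below it. Array 3 read 157 units for Lmf1 (149 to 278 on the adequate arrays), 672 for Slc27a1 (634 to 747) and 697 for Fabp3 (659 to 853). Cav2 was high only on deficient arrays 1 and 2, with 5346 and 6965 units, and read 3078 on array 3, against 2652 to 3508 on the adequate arrays. The list of other droplet and lipolysis genes divided 4 and 4, led by the phospholipase Pnpla8 at 0.50 ± 0.19, then Faf2 at 0.29 ± 0.17. Hilpda was at -0.30 ± 0.19 and Mgst1, a glutathione transferase counted in that list, at -0.17 ± 0.22. Deficient array 3 lay inside the adequate range for Pnpla8 (1693 units, against 1270 to 1711) and Hilpda (610, against 561 to 661). Hormonal control of lipolysis had 7 of 11 genes lower. Prkaca, a catalytic subunit of protein kinase A, was at -0.58 ± 0.26, with 607 units on deficient array 3, inside the adequate range of 555 to 759. Gnas, the stimulatory G protein, was at 0.33 ± 0.18 and the receptor Adra2a at -0.32 ± 0.20. Npr3, the clearance receptor for natriuretic peptides, read 59.2, 80.9 and 93.3 units in the deficient group, against 120, 119 and 138 in the adequate group, with the deficient mean under the cutoff. The beta-adrenergic receptor of fat, Adrb3, was above the cutoff on every array, with 319 to 405 units in the deficient group and 320 to 361 in the adequate group.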

How the data were processed

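Rat Genome 230 2.0 arrays by Affymetrix, 6 in all, were used, 3 from either diet of the dams. Each probe set has an intensity on a linear scale in the deposited tables; MAS5 and Affymetrix Expression Console are named, per the submitters' processing notes, without versions. The 2% trimmed mean is 500 on each array, so the authors' scaling removes differences in total RNA. Background settings: not given in the sources used here. Precision is set by how few arrays there are.

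Groups and replicate numbers came from the titles. The 57 control probe sets were set aside, and the other 31042 were log2 transformed with no offset. Those at or above the 40th percentile of mean log2 signal were fitted with limma 3.58.1 in R 4.3.3 (lmFit, eBayes with a variance trend, two-sided, Benjamini-Hochberg over all 18625), deficient minus adequate. The platform annotation gives 1 symbol to 20826 probe sets, several to 436 and none to 9780; 20758 of the first matched a GRCr8 gene table by Entrez number, which changed 0 symbols. The fitting code was tested on simulated data.

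The members and gene lists were chosen with earlier results of these data known. Values on every array are given for the 4 members with the highest signal (a choice of what to print, not an order of levels), members without overlap and 12 fixed names, in the brightest tested probe set of each, and up to 4 genes by smallest p are named in each of 7 pathway lists; others were added after their values were seen. Fold changes are left out where a group mean lies under the cutoff. Replicate numbers were not taken as pairs, since the labels state no pairing. Alternatives were other normalizations, filters, an offset of 50, no variance trend, a replicate block, leaving out arrays and averaging the probe sets of a gene. Promoters are RefSeq windows. Figures were drawn with matplotlib 3.10.9.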

Additional observations from a re-analysis of the deposited data

How the results depend on the processing

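With 6 arrays, each value rests on 3 a group, and signals near the cutoff limit what dim genes show. Of 311 alternative values for 21 named members, 292 kept direction and side of the threshold, 14 changed sign and 5 passed the threshold, all 5 without deficient array 3. This tally does not measure size: Cd36, at -0.41, was counted as kept at -0.15 without deficient array 1. No member was near the threshold at first, the smallest limma adjusted p being 0.344, so keeping its side says little. The count of all probe sets past the adjusted threshold was 0 by limma in each alternative but that one, and ranged from 0 to 3614 over arrays left out. The count at an unadjusted p under 0.05 was 2647, ranged from 906 to 6572 over arrays left out, and was 1214 with deficient array 3 alone. For the 45 member probe sets this count was 5, ranged from 3 to 22 over arrays left out, was 8 after quantile normalization (17.8%, against 13.5% of all) and 9 with deficient array 3 alone (20.0%, against 6.52% of all). Counts with that array alone take their spread from the adequate arrays only. The members' median log2 change of -0.24 ranged from -0.31 to -0.17 over arrays left out, was -0.15 with no filter (all 40 genes, so 9 dim ones enter) and -0.11 with deficient array 3 alone. The number of member probe sets lower, 30, ranged from 28 to 31 over arrays left out. Signs changed as follows, and the cause was not tested. With deficient array 3 alone the log2 change was 0.34 for Cd36, 0.39 for Lpl, 1.53 for Angptl4, -0.26 for Lipe and -0.23 for Scd. Cav1 was at -0.06 after quantile normalization. Over arrays left out, Lpl ranged from -0.37 to 0.09, Angptl4 from -1.52 to 0.21, Lipe from -0.01 to 0.57, Pnpla2 from -0.21 to 0.35 and Fasn from -0.35 to 0.07. The 5 that passed without deficient array 3 were Cd36, Angptl4, Cav1, Plin2 and Elovl1. With the replicate number as a block, the median stayed at -0.24 and 6 member probe sets had an unadjusted p under 0.05 (3235 over all probe sets). Deviations of same-numbered arrays from their group means correlated at 0.107, 0.153 and 0.00655. Each deficient array correlated best with the adequate array of its own number, but adequate array 3 did so with deficient array 1 (0.0512). These correlations are low and the labels state no pairing, so the numbers were not taken as pairs.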
